A study of Homo sapiens with 2 samples.

Results

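The genes followed were 32 interferon-stimulated genes: MX1, MX2, IFITM1, IFITM2, IFITM3, BST2, LY6E, RSAD2, CMPK2, ISG20, IFI44, IFI44L, IFI6, IFI27, IFI35, IFI16, SAMD9, SAMD9L, DDX60, PARP9, PARP12, PARP14, DTX3L, TRIM21, TRIM22, SP100, SP110, IRF7, XAF1, EPSTI1, PLSCR1 and LGALS3BP. They were chosen by name as the interferon-stimulated antiviral genes outside the IFIT, OAS, RNA-sensor and ISG15 groups, and make up 32 of the 19775 named genes on the array. The array's gene annotation assigned 57 probe sets to them, 1 of which it assigned to IFITM1 and IFITM2 together. The cells were KG1, a human acute myeloid leukaemia line with progenitor features. The group siRNA-Tbet had been electroporated with 1.98 µg of siRNA against T-bet, and the group siRNAc with the same amount of control siRNA. Both groups rested for 5 h and then received interleukin-18 at 10 ng/ml for 12 h, so no unstimulated cells enter the comparison. Each group is 1 Affymetrix array, and without replicates no error between samples can be given and no test was made.

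Interferons signal through cell-surface receptors and the kinases JAK1, JAK2 and TYK2 to transcription factors. Type I and type III interferons activate a complex with IRF9 that binds the interferon-stimulated response element (ISRE), and interferon-γ activates factors that bind the gamma-activated sequence (GAS). The genes so induced encode proteins that block virus entry, uncoating, replication or release, and several are also expressed at a basal level in myeloid cells. T-bet, encoded by TBX21, is a transcription factor of type 1 lymphocyte responses that drives IFNG, the gene of interferon-γ. The comparison addresses which genes depend on T-bet in a myeloid line.

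Signals are MAS5 intensities in arbitrary units, which differ between probe sets for reasons other than transcript amount, so signals of different genes are not ranked against each other. A signal at or under 146, the higher of the 2 arrays' medians, was raised to that floor before ratios were taken. TBX21 had a signal of 1839 in siRNA-Tbet cells and 3581 in siRNAc cells, so 51.3% of the siRNAc signal was left. Of 7 markers of the KG1 line, CD34, PTPRC, ANPEP, CD38 and HLA-DRA were above the floor on both arrays, KIT was below it on both, and CD33 was not analysed here. Among lymphocyte markers, 2 of 5 T cell genes (CD3D and CD3E) and 3 of 4 natural killer cell genes (NKG7, KLRF1 and, on the siRNAc array only, KLRD1) were above it, while CD3G, CD8A, CD5 and NCR1 were below it on both arrays. The summed signal of the T cell list was 16469 in siRNA-Tbet cells and 14218 in siRNAc cells. Most of it was CD3D, at 16036 in siRNA-Tbet cells and 13657 in siRNAc cells. For the natural killer list the sum was 13370 in siRNA-Tbet cells and 14503 in siRNAc cells. Most of that was NKG7, at 12368 in siRNA-Tbet cells and 13262 in siRNAc cells. Both sums include genes below the floor, and each mainly reflects a single gene. The part of these differences in the results was not tested. In a population of cells, fewer cells of a kind and less RNA per cell cannot be told apart.

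Most of the interferon-stimulated genes had a slightly lower signal with siRNA-Tbet. Of the 32, 31 were measured, that is above the floor on at least 1 array, and 23 of these were lower and 8 higher with siRNA-Tbet. Their median log2 ratio was -0.08, which is 5.25% lower, with a range of -0.40 to 0.12. Over all 12126 measured genes the median was -0.02, 53.6% were lower and 46.4% were higher. The differences were small: 2 of the 31, IFI35 and IFI44L, were 20% or more lower, and 0 were 25% or more higher. Among all measured genes 10.9% were lower and 7.68% higher by as much, so the members' share of 6.45% is not above that of all measured genes. The background was smaller among bright genes. Of the 7192 genes above the 75th percentile on both arrays, 4.27% were lower and 2.84% higher by as much. Of the 28 members above that percentile, 2 were lower (7.14%) and 0 higher by as much.

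**Figure D1:**
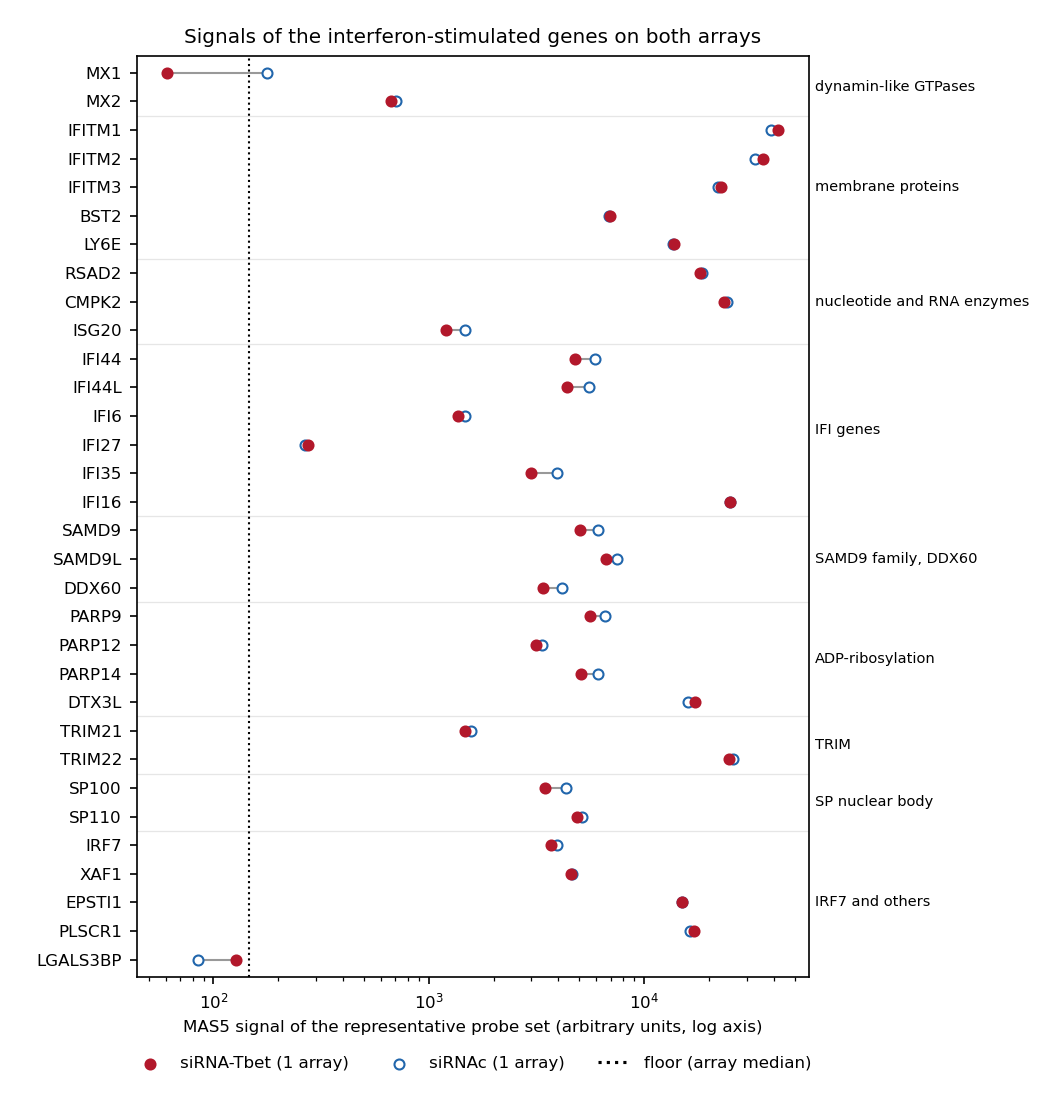
MAS5 signal of the representative probe set of each of the 32 genes on a log axis, with siRNA-Tbet as filled red points, siRNAc as open blue points and the floor of 146 as a dotted line; each point is 1 array, with no error bar. Most pairs nearly coincide, IFI35 shows the clearest gap among the genes above the floor on both arrays, and LGALS3BP lies under the floor on both.

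A single lower threshold changes that count, since several genes lay just short of 20%. SP100 was 19.9% lower, IFI44 19.4% lower and ISG20 18.8% lower. At a fold of 1.2, chosen after the values were seen, 9 of 31 were lower (29.0%) and 0 higher, against 14.7% lower and 10.3% higher among all measured genes. Above the 75th percentile on both arrays, 8 of 28 members were lower (28.6%) and 0 higher, against 7.65% and 4.95% of genes. With the floor, no member reached 1.5-fold in either direction, but MX1, whose siRNA-Tbet signal was under the floor, has only a bound of at least 1.22-fold lower, so for MX1 these counts do not tell. Among all measured genes, 2.88% were 1.5-fold or more lower and 1.96% as much higher. The spread between probe sets of 1 gene gives a scale for technical noise. It is the SD, over genes, of the difference in log2 ratio between the 2 brightest probe sets, scaled to a single probe set, and it ran from 0.37 in the dimmest of 10 signal bins to 0.12 in the brightest. It leaves out variation between cultures and between arrays. With MX1 taken at its bound, 10 of 31 members (32.3%) were lower by more than this spread, as were 17.6% of all measured genes. Higher by more than it was 1 of 31 (3.23%), IFITM2, at 0.124 against a spread of 0.123, as were 13.3% of all measured genes.

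The lower values were gathered at intermediate signals. Of the 14 members with a mean signal from 2000 to 10000, 13 were lower and 1 was higher, with a median log2 ratio of -0.25, while the 4130 genes of that signal range had a median of -0.02 and 56.7% of them were lower. Of the 11 members at 10000 or more, 5 were lower and 6 higher, with a median of 0.02, while the 1111 genes of that range had a median of 0.05 and 32.8% of them were lower. Of the 6 members under 2000, 5 were lower, with a median of -0.11, against -0.03 for the 6885 genes of that range, of which 55.1% were lower. The ranges of mean signal were set after the values were seen.

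**Figure D2:**
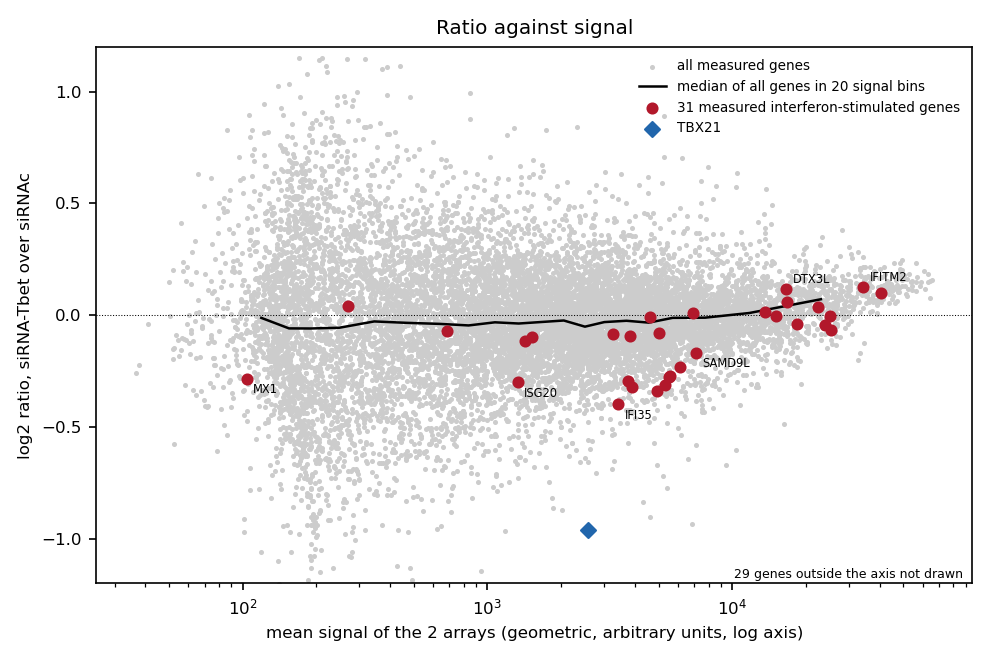
Log2 ratio of siRNA-Tbet over siRNAc against the geometric mean signal of the 2 arrays (log axis) for all measured genes (grey), the 31 measured interferon-stimulated genes (red) and TBX21 (blue diamond); the line joins the medians of all genes in 20 signal bins, and 29 genes lie outside the axis. The red points between 2000 and 10000 lie mostly under the line, with IFI35 the lowest at -0.40, and those above 10000 lie close to it.

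The start-site sequences of these genes are shown because the family is defined by its response to interferon. RefSeq start windows (GRCh38.p14) of 250 bases before and 50 bases after a transcript start were given for 27 of the 32 genes, and 11 of these had more than 1 window. The letters GAAA, any 2 bases and GAAA again, the core of the ISRE, were searched on both strands and were found in at least 1 window of 20 of the 27 genes (74.1%), against 4.38% of all 27305 genes with a window. The GAS letters TTCNNNGAA, which read the same on both strands, were found in 10 of 27 (37.0%), against 9.38% of all genes. The letters GGTGTGA, a T-box half-site, were found on either strand in 4 of 27 (14.8%; IFI27, PLSCR1, SP100 and SP110), against 4.20% of all genes. Counted by window, the ISRE letters were in 60.0% of the 40 member windows and 3.57% of all 35116 windows. A match is a run of letters and not a bound site.

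**Figure D3:**
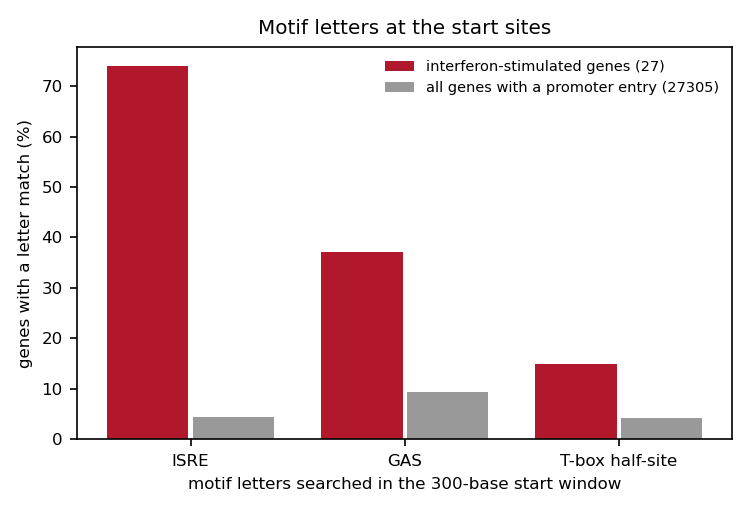
Share of genes with a letter match in at least 1 RefSeq start window, for the 27 interferon-stimulated genes with a window (red) and all 27305 genes with one (grey), for the ISRE, GAS and T-box half-site letters. The ISRE bars differ most, at 74.1% for the interferon-stimulated genes and 4.38% for all genes.

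Of the 19 measured genes with an ISRE match, 7 were at least 1.2-fold lower with siRNA-Tbet, as were 2 of the 7 without one (IFI35 and SP100) and 14.7% of all measured genes. The match nearest to the start is printed for those 7 genes and for the genes with a match and a ratio above 0. Whether the letters bear on the ratios was not tested. The core is in capitals with 5 bases on each side, on the strand that carries the GAAA repeats, in GRCh38.p14.
IFI44L (chr1:78620370-78620389, plus strand): gtgagGAAAAAGAAAgttag
IFI44 (chr1:78649766-78649785, minus strand): gaaagGAAACTGAAActcag
ISG20 (chr15:88638942-88638961, plus strand): aactaGAAACTGAAAcaggg
DDX60 (chr4:168318791-168318810, minus strand): gaaagGAAACCGAAActccc
MX1 (chr21:41420564-41420583, plus strand): gaaatGAAACCGAAActgaa
SAMD9 (chr7:93118101-93118120, minus strand): gaaatGAAACTGAAAccaaa
PARP14 (chr3:122680805-122680824, plus strand): gaaacGAAAGCGAAAgagtc
Another 6 genes with a match had a ratio above 0, and their cores read as follows.
DTX3L (chr3:122564327-122564346, plus strand): gaagcGAAACTGAAActttg
IFITM1 (chr11:314029-314048, plus strand): tctgaGAAACTGAAAcgaca
PLSCR1 (chr3:146544672-146544691, minus strand): accggGAAAAGGAAAccgtg
IFI27 (chr14:94110636-94110655, plus strand): tcctgGAAAATGAAAcctat
IFITM3 (chr11:320881-320900, minus strand): gttgaGAAACCGAAActact
BST2 (chr19:17405740-17405759, minus strand): aaactGAAACTGAAAaccta
Both sets hold the core GAAACTGAAA, in IFI44, ISG20 and SAMD9 among the lower genes and in DTX3L, IFITM1 and BST2 among the others. The sets were picked by their ratios, and the 6 genes above 0 were within their technical spread. MX1, among the lower 7, has only a bound for its ratio, so whether it was beyond the spread is not known. Genes with a match and a ratio between the sets are not printed. PARP9 is among them, with the same core bases as DTX3L and a log2 ratio of -0.23. The 19 measured genes with an ISRE match had a median log2 ratio of -0.10, with 13 of 19 lower, and the 7 without one had a median of -0.08, with 7 of 7 lower. The 10 genes with GAS letters had a median of -0.04 and the 16 without them -0.11. The 4 with the T-box half-site had a median of -0.02 and the 22 without it -0.11.

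The start windows of the 3 genes with the lowest ratio and of the gene with the highest ratio that had a window are given whole, with ISRE and GAS letters in capitals.
IFI35 (chr17:43006534-43006833, plus strand): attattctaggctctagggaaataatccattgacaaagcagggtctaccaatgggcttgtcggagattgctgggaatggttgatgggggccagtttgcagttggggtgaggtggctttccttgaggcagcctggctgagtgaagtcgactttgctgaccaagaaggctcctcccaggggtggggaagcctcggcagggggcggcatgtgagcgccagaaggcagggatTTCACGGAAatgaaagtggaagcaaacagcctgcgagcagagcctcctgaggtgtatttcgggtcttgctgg
IFI44L (chr1:78620198-78620497, plus strand): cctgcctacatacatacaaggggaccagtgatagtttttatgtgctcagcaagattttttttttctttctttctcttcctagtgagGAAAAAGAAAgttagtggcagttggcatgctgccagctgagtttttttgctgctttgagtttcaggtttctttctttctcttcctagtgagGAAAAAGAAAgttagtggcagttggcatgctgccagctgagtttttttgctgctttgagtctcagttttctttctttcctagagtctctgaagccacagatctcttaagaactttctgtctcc
SP100 (chr2:230415951-230416250, plus strand): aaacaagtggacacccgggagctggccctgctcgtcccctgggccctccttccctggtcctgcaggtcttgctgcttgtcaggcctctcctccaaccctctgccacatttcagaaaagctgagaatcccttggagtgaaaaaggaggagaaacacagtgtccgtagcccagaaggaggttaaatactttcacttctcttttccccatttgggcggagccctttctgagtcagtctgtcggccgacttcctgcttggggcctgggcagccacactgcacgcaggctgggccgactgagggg
DTX3L (chr3:122564088-122564387, plus strand): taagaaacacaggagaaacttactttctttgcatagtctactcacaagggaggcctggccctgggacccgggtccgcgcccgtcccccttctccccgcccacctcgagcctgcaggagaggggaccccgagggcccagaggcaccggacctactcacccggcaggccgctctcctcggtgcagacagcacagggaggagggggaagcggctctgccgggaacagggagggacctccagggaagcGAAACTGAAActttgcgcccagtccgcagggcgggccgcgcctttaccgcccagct
The IFI35 window holds GAS letters 22 bases before the start and no ISRE letters. The IFI44L window holds the ISRE letters at 164 and at 73 bases before the start. The SP100 window shown holds none of the letters searched, and the T-box half-site counted for SP100 is in its other window. The DTX3L window holds the ISRE letters 6 bases before the start. The same 10 bases lie 41 bases before the PARP9 start on the opposite strand, since the DTX3L and PARP9 windows overlap by 137 bases.

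The IFI-named genes included the lowest ratios. IFI35, which encodes an interferon-induced leucine zipper protein, had a signal of 2982 in siRNA-Tbet cells and 3931 in siRNAc cells, a 1.32-fold lower value (log2 ratio -0.40, technical spread 0.17) on its single probe set. IFI44L had a signal of 4367 in siRNA-Tbet cells and 5531 in siRNAc cells, 1.27-fold lower. IFI44, its neighbour on chromosome 1, had 4762 in siRNA-Tbet cells and 5905 in siRNAc cells, 1.24-fold lower. Its second probe set had 673 in siRNA-Tbet cells and 847 in siRNAc cells, so both probe sets of IFI44 and the one of IFI44L were lower by similar amounts (log2 ratios -0.31, -0.33 and -0.34). IFI6, a mitochondrial and endoplasmic reticulum protein that opposes cell death, had 1362 in siRNA-Tbet cells and 1475 in siRNAc cells, a difference within the technical spread. IFI27, a related mitochondrial protein, was dim on both arrays, with 274 in siRNA-Tbet cells and 267 in siRNAc cells. IFI16, a nuclear sensor of DNA, had 24987 in siRNA-Tbet cells and 25062 in siRNAc cells. Its other probe sets had log2 ratios of 0.03 and 0.23, so the gene had no settled direction. Of the 6 genes, 5 were lower and 1 higher, with a median of -0.21; IFI16 was on the higher side (log2 ratio 0.017) after each array was divided by its median.

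SAMD9, SAMD9L and DDX60 were all lower by more than the technical spread. SAMD9 and SAMD9L are neighbouring genes on chromosome 7 whose proteins restrict poxvirus translation, and DDX60 is a helicase that aids RNA sensing. DDX60 had a signal of 3377 in siRNA-Tbet cells and 4141 in siRNAc cells, 1.23-fold lower. SAMD9 had 5023 in siRNA-Tbet cells and 6090.0 in siRNAc cells, 1.21-fold lower, and its second probe set had 2389 in siRNA-Tbet cells and 2488 in siRNAc cells. SAMD9L had 6683 in siRNA-Tbet cells and 7511 in siRNAc cells, 1.12-fold lower. Its second probe set gave a similar log2 ratio of -0.19, and the third, at a dim 383 in siRNA-Tbet cells and 360.2 in siRNAc cells, gave 0.09.

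The ADP-ribosylation genes were split. PARP9 and DTX3L encode partners of a complex in which DTX3L is the ubiquitin ligase, and they start from opposite strands of overlapping windows on chromosome 3. PARP9 had a signal of 5629 in siRNA-Tbet cells and 6606 in siRNAc cells, 1.17-fold lower, and its second probe set had 2111 in siRNA-Tbet cells and 2339.6 in siRNAc cells. DTX3L had 17328 in siRNA-Tbet cells and 15972 in siRNAc cells, 1.08-fold higher, which is within its technical spread of 0.12. PARP14, a large mono-ADP-ribosyltransferase also on chromosome 3, had 5081 in siRNA-Tbet cells and 6139 in siRNAc cells, 1.21-fold lower. Its other probe set was at the floor with siRNA-Tbet and barely over it with siRNAc. PARP12, another mono-ADP-ribosyltransferase, had 3149 in siRNA-Tbet cells and 3341 in siRNAc cells, 1.06-fold lower and within the spread.

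**Figure D4:**
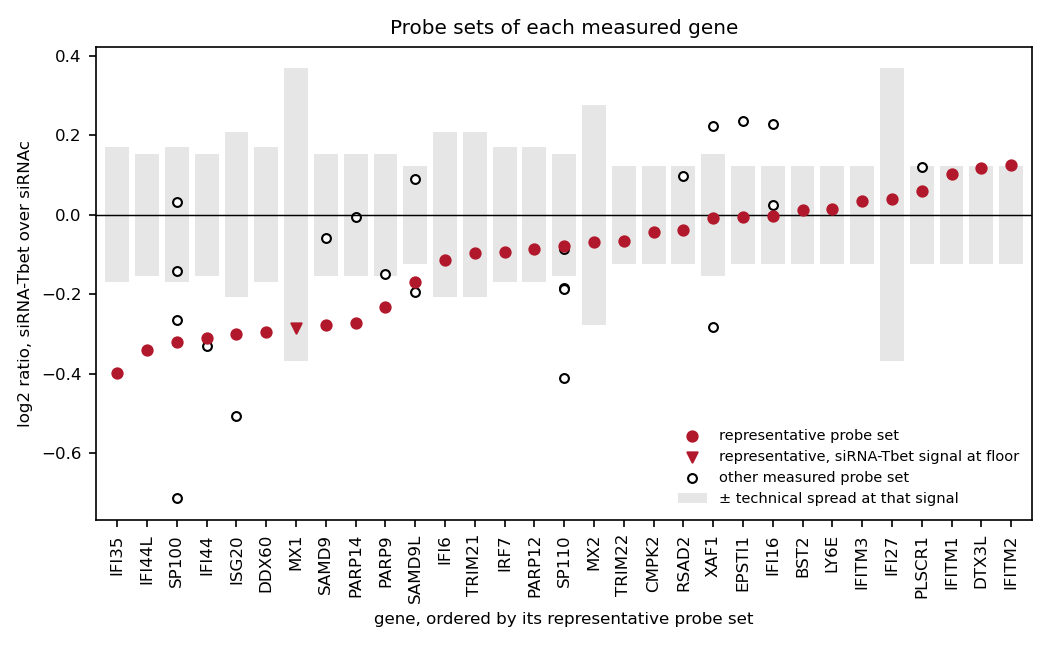
Log2 ratio of siRNA-Tbet over siRNAc for every measured probe set of the 31 measured genes, ordered by the representative probe set (red; a triangle marks the one at the floor with siRNA-Tbet), with the other probe sets as open circles and the technical spread at that signal as a grey bar around 0. The red points of 10 of the 31 genes lie under their bars, IFI35 lowest, and open circles of XAF1, EPSTI1 and IFI16 lie above theirs.

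The nuclear body genes SP100 and SP110 were read by the most probe sets. SP100, a scaffold of PML nuclear bodies that restrains incoming viral genomes, had a signal of 3481 in siRNA-Tbet cells and 4346 in siRNAc cells on its brightest probe set. Of its 6 probe sets, 5 were lower, with log2 ratios from -0.71 to -0.14. The -0.71 was on a dim probe set, at 263 in siRNA-Tbet cells and 431 in siRNAc cells, and the next lowest was -0.32. The remaining probe set, at 257 in siRNA-Tbet cells and 252 in siRNAc cells, had 0.03. SP110, a related nuclear body protein, had 4907 in siRNA-Tbet cells and 5179 in siRNAc cells. All 5 of its probe sets were lower, with log2 ratios from -0.41 to -0.08, of which 3 are of a kind that can cross-hybridise.

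The enzymes of nucleotide and RNA metabolism differed among themselves. ISG20, an exonuclease that degrades single-stranded RNA, had a signal of 1203 in siRNA-Tbet cells and 1481 in siRNAc cells, 1.23-fold lower. Its second probe set had 873 in siRNA-Tbet cells and 1239 in siRNAc cells (log2 ratio -0.51), so both probe sets were lower. RSAD2, or viperin, which makes a chain-terminating nucleotide, had 18164 in siRNA-Tbet cells and 18656 in siRNAc cells, and its second probe set had 12572 in siRNA-Tbet cells and 11760.1 in siRNAc cells. CMPK2, a mitochondrial nucleotide kinase that neighbours RSAD2 on chromosome 2, had 23492 in siRNA-Tbet cells and 24188.5 in siRNAc cells. The windows of RSAD2 and CMPK2 overlap on opposite strands, and both representative ratios were -0.04.

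The membrane proteins had bright signals and log2 ratios from 0.01 to 0.12. IFITM1, IFITM2 and IFITM3 block fusion of enveloped viruses and lie side by side on chromosome 11. IFITM1 had a signal of 41884 in siRNA-Tbet cells and 39046 in siRNAc cells. IFITM2 had 35851 in siRNA-Tbet cells and 32893.5 in siRNAc cells, 1.09-fold higher. IFITM3 had 22719.6 in siRNA-Tbet cells and 22168 in siRNAc cells. Since the IFITM sequences are very similar and 2 of the 3 probe sets are of the cross-hybridising kind, the values of single IFITM genes are uncertain. BST2, or tetherin, which holds budding virions on the cell, had 6945 in siRNA-Tbet cells and 6889 in siRNAc cells. LY6E, a surface protein that limits coronavirus fusion, had 13741 in siRNA-Tbet cells and 13595.5 in siRNAc cells. All 5 were on the higher side, and all but BST2 were in the signal range of 10000 or more, where 32.8% of all genes were lower and the median was 0.05. IFITM1, IFITM3 and LY6E were on the lower side after quantile normalization (log2 ratios -0.030, -0.042 and -0.033), and IFITM3 and LY6E also after removal of a lowess trend. IFITM2 was at 0.0025 after quantile normalization, 0.037 after removal of the trend and 0.15 with each array divided by its median.

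The Mx genes, dynamin-like GTPases that trap viral nucleocapsids, were at modest signals. MX1 had a signal of 60.9 in siRNA-Tbet cells, which is under the floor, and 178 in siRNAc cells, so it was at least 1.22-fold lower. The floored log2 ratio of -0.28 is a bound. The technical spread of the dimmest bin, 0.37, came from probe sets above the floor on both arrays. It therefore does not tell whether the difference in MX1 was within the technical noise. MX2, its neighbour on chromosome 21, had 669 in siRNA-Tbet cells and 702 in siRNAc cells, 1.05-fold lower.

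The regulators and the remaining effectors differed little. IRF7, the transcription factor that amplifies type I interferon production, had a signal of 3708 in siRNA-Tbet cells and 3955 in siRNAc cells, 1.07-fold lower and within the spread. TRIM21, a cytosolic antibody receptor and ubiquitin ligase, had 1468 in siRNA-Tbet cells and 1570.3 in siRNAc cells, and TRIM22, a ligase that restricts retroviral transcription, had 24720 in siRNA-Tbet cells and 25878 in siRNAc cells. XAF1, a promoter of cell death, had 4605 in siRNA-Tbet cells and 4629 in siRNAc cells, and its other probe sets lay on opposite sides, at 0.22 and -0.28. EPSTI1 had 15001.5 in siRNA-Tbet cells and 15049.5 in siRNAc cells, with 0.24 at its second probe set. PLSCR1, a phospholipid scramblase, had 17040.1 in siRNA-Tbet cells and 16337 in siRNAc cells, and its second measured probe set was also higher (log2 ratio 0.12). LGALS3BP, a secreted glycoprotein, was under the floor on both arrays, at 127 in siRNA-Tbet cells and 84.8 in siRNAc cells, and has no ratio.

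Probe sets of the same gene offer the only repeat reading in these data. Of the 54 measured probe sets assigned to 1 member, 38 were lower (70.4%), against 51.6% of the measured probe sets of all named genes. SP100 gave 6 of these, 5 of them lower, and SP110 gave 5, all lower. Probe sets of a gene were read on the same 2 arrays and are not replicates. Of the 31 measured members, 13 had 2 or more measured probe sets. In 6 of the 13 (46.2%), ISG20, IFI44, SAMD9, PARP9, PARP14 and SP110, all were lower, in 1, PLSCR1, all were higher, and in 6 they lay on both sides. Both probe sets of ISG20 and of IFI44 were lower by more than the spread. The second probe sets of SAMD9 (log2 ratio -0.06) and PARP9 (-0.15) were within it, and that of PARP14 was -0.005 at the floor. The SP110 probe sets not of the cross-hybridising kind, at -0.08 and -0.09, were also within it. Among the 6140 genes with 2 or more measured probe sets, 22.0% had all lower and 19.4% had all higher. With the second-brightest probe set in place of the brightest, 8 of 13 members were lower (61.5%), with a median log2 ratio of -0.06, against 49.7% of the 6140 genes.

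The interferon genes themselves were mostly under the floor. Of 21 ligand genes, 3 were not analysed here and 15 were under the floor on both arrays, IFNB1 among them. IFNG had a signal of 31243 in siRNA-Tbet cells and 35136 in siRNAc cells, 1.12-fold lower. IFNA17, on a probe set that can read other interferon-α genes, had 238 in siRNA-Tbet cells and 288 in siRNAc cells. IFNL1, the third, named after its values were seen, was at the floor with siRNA-Tbet and at 244 in siRNAc cells. The receptor genes were on the higher side in 4 of 6, with a median of 0.08. IL10RB, a chain shared by the interferon-λ and interleukin-10 receptors, was 1.39-fold higher, with 1731 in siRNA-Tbet cells and 1249 in siRNAc cells. IFNGR1, IFNGR2 and IFNAR1 had log2 ratios of 0.14, 0.12 and -0.10. The measured probe sets of IFNGR1 were 1 lower and 2 higher, and those of IFNAR1 were 2 lower and 2 higher. IFNGR2 had 1 measured probe set. Of the transducers, JAK2 was 1.23-fold higher on its brightest probe set and higher on 2 of 3, while JAK1, TYK2 and IRF9 had log2 ratios from -0.04 to 0.02. Of the negative regulators, USP18, which blocks the type I receptor, was 1.38-fold lower, and SOCS1 and SOCS3 had log2 ratios of -0.02 and 0.05.

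The groups most like these genes had lower medians. The 8 IFIT and OAS genes were lower in 8 of 8, against 53.6% of all measured genes, with a median log2 ratio of -0.25. By 20% or more, 4 of 8 were lower, against 10.9% of all measured genes. In IFIT5, OAS1 and OAS3 the second probe set was on the higher side. Of the 6 ISG15 conjugation genes, UBA7 was not analysed here. The others were lower in 4 of 5, against 53.6% of all measured genes, with a median of -0.13. By 20% or more, 2 of 5 were lower, against 10.9% of all measured genes. These 2 were HERC5 and USP18, and USP18 is also among the negative regulators above. With 1 array per group these differences between groups of genes were not tested.

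**Figure D5:**
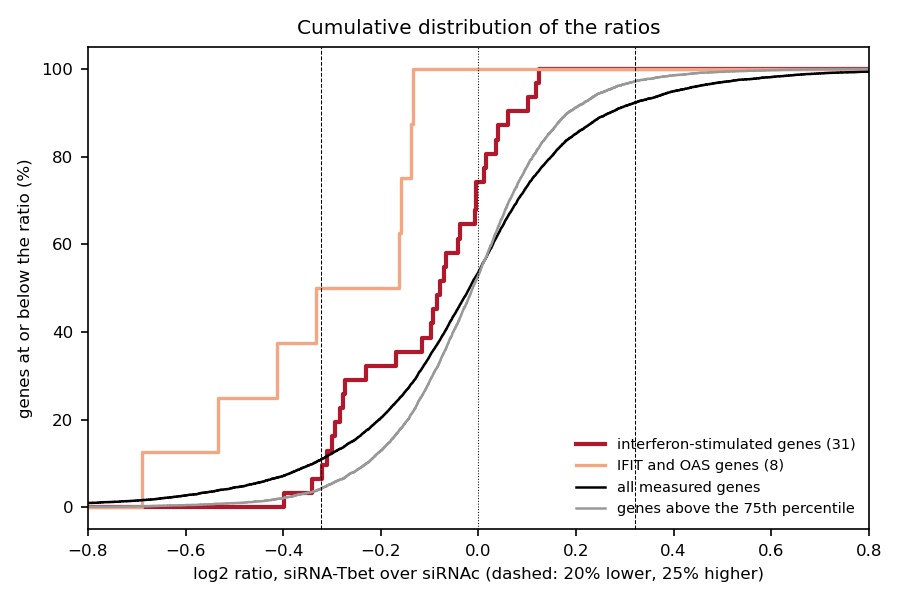
Cumulative share of genes at or below each log2 ratio of siRNA-Tbet over siRNAc, for the 31 measured interferon-stimulated genes (red), the 8 IFIT and OAS genes (orange), all measured genes (black) and genes above the 75th percentile on both arrays (grey); dashed lines mark 20% lower and 25% higher. The red curve passes 74.2% at a ratio of 0, where the black curve is at 53.6%, and it crosses the lower dashed line at 6.45%.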

How the data were processed

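Transcripts of IL-18-stimulated KG1 cells were measured on 2 arrays, 1 per group. The values are intensities made by the authors with MAS5, per the submitters' processing notes; its version was not stated there. MAS5 combines the probes of a probe set into 1 signal and makes low signals noisy. Both deposited intensity columns had a trimmed mean of 1000.1 (2% removed at each end), so no further scaling was applied. Array signals and the single array per group limit the precision.

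Of 54675 probe sets, 62 are controls, 41097 had 1 gene (41043 matched by gene number to RefSeq GRCh38.p14), 1801 had several and 11777 are unnamed here. Each gene was read from the probe set of highest mean log2 signal, with cross-hybridising (_x_at) ones taken only where it had no other. A single floor, 146, was used for both arrays, since floors that differ by array can turn a ratio's sign. Alternatives covered scaling, floor, probe set and fold. The gene-level steps were tested on simulated data. Members, lists and rules were chosen with earlier results of these data known. The rule for named genes took all members, in depth those with agreeing probe sets and the 6 with the largest ratio per direction, TBX21, and up to 4 genes per pathway list above the floor on both arrays. The IFITM proteins it also names are not shown, as no protein sequences were used here. Python 3.11.15, pandas 2.3.3 and statsmodels 0.14.6 (lowess, span 0.3) were used.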

Additional observations from a re-analysis of the deposited data

How the results depend on the processing

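The median log2 ratio of the members stayed below 0 under all 10 alternatives of scaling, floor and probe set, from -0.11 to -0.06; with plain probe sets only it was -0.11 over 20 members. The count of members below 0 was 23 of 31 (74.2%), against 53.6% of measured genes. Over the same 31 it was 20 (64.5%) with each array divided by its median, against 49.3% of genes. It was also 20 with the median over probe sets, against 52.7% of genes. Under quantile normalization it was 25 (80.6%), against 53.9%, and with a lowess trend taken out 24 (77.4%), against 53.1%. With second-brightest probe sets, where fewer members have a value, it was 8 of 13 (61.5%), against 49.7% of genes. The count of members 20% or more lower was 1 of 31 (3.23%) with each array divided by its median, where 9.91% of measured genes were lower by as much. With the median over probe sets it was 3 of 31 (9.68%), against 9.80% of genes. With the 25th percentile as floor and with no floor it was 3 of 32 (9.4%), against 19.1% and 22.5% of genes. With a fold in place of the 20%, the count lower was 9 at 1.2, chosen after seeing the data, and 0 at 1.5 and at 2, where MX1 counts at its floored bound. Among all measured genes, 14.7%, 2.88% and 0.305% were lower by these folds. With the 25th percentile as floor and with no floor, the log2 ratio of MX1 was -1.55 in place of -0.28, past the folds of 1.5 and 2. The count 25% or more higher was 1 of 32 with the 25th percentile as floor and with no floor, which admit LGALS3BP. Among the genes measured under these settings, 17.5% and 21.0% were higher by as much. Without the IFITM genes, an alternative also chosen after seeing the data, the median was -0.09. Of the 31 members, 24 kept the sign of their log2 ratio under every alternative that gave a value. The other 7 changed sign in 17 values, and the cause was not tested. A change of floor leaves the ratio of a gene above the floors unchanged. For members with 1 measured probe set the probe set alternatives also repeat the same value, so only the scaling alternatives could turn their sign. With each array divided by its median, IFI16 was 0.017, XAF1 0.014 and EPSTI1 0.017, and the median of the negative regulators was 0.00082. After quantile normalization, IFITM1 was -0.030, IFITM3 -0.042, LY6E -0.033 and XAF1 0.0081, and the median of the transducers was -0.0013. With the lowess trend removed, IFITM3 was -0.027, LY6E -0.017 and XAF1 0.0031. With the median over probe sets, RSAD2 was 0.029, IFI16 0.025 and EPSTI1 0.12, and with second-brightest probe sets RSAD2 was 0.10, IFI16 0.23, XAF1 0.22 and EPSTI1 0.24. No paired analysis was possible because each group is 1 array. The low signals of MX1, IFI27 and LGALS3BP limit what can be said of them.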
